A study of Mus musculus with 30 samples.

Results

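The core circadian clock is built from a small set of transcription factors and repressors, and 10 of their genes were followed here across the duodenum and liver of mice on 3 diets. The genes were chosen by name: the activators Arntl, Clock and Npas2, the repressors Per1, Per2, Per3, Cry1 and Cry2, and the nuclear receptors Nr1d1 and Nr1d2. All 10 were found by gene symbol among the 47069 genes of the deposited table, and all 10 had enough counts to enter every comparison below. C57BL/6 mice, a common inbred strain, received a diet of fructose, of dextrose (D-glucose) or of corn starch, the last being the control. RNA from duodenum and from liver was sequenced, and every tissue and diet had 5 libraries, giving 6 groups and 30 libraries. Total counts per library ran from 14530137 to 19850935. The labels used here do not give age, sex, length of feeding or time of day of collection, and do not tie each library to a mouse of its own, so a p-value here reflects spread among libraries that may in part be technical.

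In the mammalian clock, the protein of Arntl pairs with that of Clock, or of its close relative Npas2, and the pair switches on genes that carry an E-box in their control regions. Among these targets are the Per and Cry genes, whose proteins return to the nucleus and shut the pair down, and Nr1d1 and Nr1d2, whose proteins repress Arntl through ROR elements. Liver and gut carry their own clocks, which are known to follow feeding as well as light, and transcripts of these genes rise and fall over the day in both organs.

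Short stretches around promoters show where the letters of these control elements lie in the members, since these genes act on each other through them. The sequences come from RefSeq on build GRCm38.p6, with windows from 250 bases before to 50 after each start site. Of the 10 members, 9 had an entry, with 13 start sites between them; Per2 had none. Capitals mark the E-box CACGTG, the E-prime box CACGTT (which reads AACGTG on the other strand), the D-box TTATGNAA or the ROR element, each searched on both strands.
Cry1: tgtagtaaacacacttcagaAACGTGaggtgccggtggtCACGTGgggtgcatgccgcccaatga
Cry2: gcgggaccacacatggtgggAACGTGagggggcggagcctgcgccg
Nr1d1: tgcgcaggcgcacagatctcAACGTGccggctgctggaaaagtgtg
Per1, farther from the start: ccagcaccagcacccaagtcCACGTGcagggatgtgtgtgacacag
Per1, nearer to the start: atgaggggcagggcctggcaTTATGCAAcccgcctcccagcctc
Per3: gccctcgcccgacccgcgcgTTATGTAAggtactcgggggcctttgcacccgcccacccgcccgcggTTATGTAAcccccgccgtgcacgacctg
Arntl: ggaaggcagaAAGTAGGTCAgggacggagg

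The Cry1 stretch lies at chr10:85185089-85185153 on the minus strand, 99 to 35 bases before the start. The Cry2 stretch lies at chr2:92434210-92434255 on the minus strand, and that of Nr1d1 at chr11:98775380-98775425, also on the minus strand. The Per1 stretches lie at chr11:69098763-69098808 and chr11:69098905-69098948 on the plus strand. The Per3 stretch lies at chr4:151044796-151044890 on the minus strand, and that of Arntl at chr7:113207528-113207557 on the plus strand, 17 to 46 bases past a start site. An E-box was found in 2 members (Per1 and Cry1), against 7.15% of all 32851 promoters in the table. An E-prime box was found in 3 (Cry1, Cry2 and Nr1d1), against 4.68%. A D-box was found in 2 (Per1 and Per3), against 3.38%, and a ROR element in 1 (Arntl), against 0.606%. A member counted if any of its start sites matched, while the shares are of single start-site windows, so counts and shares are not like for like. These matches describe the letters of the windows and are not shown here to be bound sites.

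Several libraries stood apart from their groups. The summed level of 6 hepatocyte markers was 55629 to 107524 CPM (counts scaled to a common library total) in liver, and 3.60 to 21.8 in duodenum except for control 5, where it was 188. The sum of 6 pancreatic acinar markers was 7.88 to 14.7 CPM in duodenum except for fructose 3 (64.3) and control 3 (150.1). In liver, 6 cell cycle genes summed to 3.90 to 9.37 CPM except in dextrose 5 (144) and control 2 (131), and acinar markers reached 985 CPM in dextrose 5 and 495 in control 5, against 37.6 to 213 in the other liver libraries. Enterocyte markers summed to 19840 to 29797 CPM in duodenum and 1496 to 4600 in liver, so the main markers followed the tissue labels. Of the 10 genes, diet differences that passed are given with and without the libraries that stood apart. Those libraries are duodenum control 3, control 5 and fructose 3, and liver dextrose 5 and control 2. Some other differences are given so too, but not all that moved. For dextrose against control in duodenum, Per1 went from -0.81 to -0.45 log2 units without them, and Npas2 from 0.57 to 0.25. The part of these markers in the results was not tested. Liver control 5, with acinar markers at 495 CPM, was kept in those fits and is not among the libraries said below to stand apart.

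The first question was what each sugar changed in the duodenum. On fructose, as against the control diet, Cry1 and Arntl rose by about 1 log2 unit, and Cry2 and Per3 fell by slightly more. Thus the cryptochromes, a pair of repressors, moved in opposite directions. On dextrose Cry2 fell in the same comparison, and Cry1 was higher on fructose than on dextrose. The counts were tested with edgeR's quasi-likelihood test over the 15 duodenum libraries, with p-values adjusted over 13884 genes. With fructose against control 2 members rose and 2 fell, where 6.71% of all genes passed (4.01% up and 2.7% down). With dextrose against control 1 member passed, downward, where 2.25% of genes passed (1.09% down). With fructose against dextrose 1 passed, upward, where 3.64% passed (2.17% up). In tissue RNA, fewer cells of a type and less RNA per cell cannot be told apart. The values for each library, scaled within the tissue by TMM factors (a correction for RNA composition), are CPM in what follows.

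Cry1 encodes the cryptochrome that most strongly represses the activator pair. On fructose its level was 36.4, 31.9, 35.6, 34.5 and 31.1 CPM in libraries 1 to 5. On dextrose it was 18.9, 14.6, 19.3, 13.1 and 31.0, and on control 16.8, 15.9, 16.0, 13.2 and 17.2. Every fructose library lay above every control library and above every dextrose library, the nearest being dextrose 5. The fructose mean was 33.9 ± 2.32 CPM (SD, n = 5) and the control mean 15.8 ± 1.57. The log2 fold change was 1.10 ± 0.17 (SE) against control, with an adjusted p of 0.000712. Against dextrose it was 0.81 ± 0.17, with an adjusted p of 0.0125. Without the 3 duodenum libraries that stood apart the difference from control was 1.13 ± 0.23 (adjusted p = 0.0183), and that from dextrose 0.79 ± 0.20 (adjusted p = 0.0626), which no longer passed. Dextrose against control gave 0.29 ± 0.17, with an adjusted p of 0.626.

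Cry2 encodes the other cryptochrome, a repressor of the same pair. On control it stood at 9.69, 15.3, 11.4, 15.7 and 10.9 CPM in libraries 1 to 5. On fructose it was 3.81, 4.27, 5.29, 5.02 and 7.45, and on dextrose 5.21, 6.84, 5.86, 4.83 and 6.20. Both sugar groups lay wholly below the control group and overlapped each other. Cry2 fell by 1.28 ± 0.19 log2 units on fructose (adjusted p = 0.000321) and by 1.12 ± 0.19 on dextrose (adjusted p = 0.00257). Without the 3 libraries that stood apart both passed, at -1.40 ± 0.24 (adjusted p = 0.00519) and -1.23 ± 0.22 (adjusted p = 0.0132). Both comparisons share the same 5 control libraries. Fructose against dextrose gave -0.16 ± 0.19 (adjusted p = 0.755). Exons of Cry2 share 295 of 6320 bases with D930015M05Rik, a transcript on the other strand in the GENCODE M21 annotation, and the library kit does not mark strand, so a part of these counts could belong to it.

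Arntl, the obligate partner in the activator pair, stood at 48.1, 57.8, 57.2, 47.1 and 32.5 CPM on fructose. On dextrose it was 30.9, 21.8, 43.5, 21.4 and 57.1, and on control 25.3, 19.6, 18.9, 29.0 and 14.8. All fructose libraries were above all control libraries, while the dextrose libraries overlapped both groups. Arntl rose by 1.17 ± 0.27 on the log2 scale with fructose against control (adjusted p = 0.0143). Without the 3 libraries that stood apart, the difference was 0.91 ± 0.33 (adjusted p = 0.216) and no longer passed. Dextrose against control gave 0.70 ± 0.27 (adjusted p = 0.288), and 0.45 without dextrose 5 (adjusted p = 0.522). The ROR element printed above, the kind of site through which Nr1d1 and Nr1d2 act, lies at a start site of this gene.

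Npas2, which can take the place of Clock, was 55.5, 67.1, 55.1, 69.9 and 56.6 CPM on fructose and 47.1, 21.7, 26.9, 53.1 and 14.1 on control. The lowest fructose library was above the highest control library, but the controls were widely spread. The log2 difference was 0.90 ± 0.31, with an adjusted p of 0.111, and did not pass. Without control 4 it was 1.15 ± 0.31 and passed (adjusted p = 0.0401), and without the 3 libraries that stood apart it was 0.62 ± 0.32 (adjusted p = 0.434). On dextrose Npas2 was 46.0, 32, 53.5, 34.8 and 75.2 CPM, overlapping both other groups. Clock, the third activator, differed least: its 15 duodenum values lay between 49.2 and 75.0 CPM, and the 3 diet differences were -0.03 to 0.15 log2 units with SEs of 0.13. Of the 10 members 3 (Arntl, Npas2 and Cry1) had every fructose library above every control library, where 4.15% of genes did. For Cry2, the sole member with every fructose library below, the share of genes was 2.92%. Cry2 was also the sole member with every dextrose library below every control (1.7% of genes), and Cry1 the sole one with every fructose library above every dextrose library (3.38%).

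Per3, a period gene whose protein is the weakest repressor of the family, had the lowest level per length of the members in duodenum. It was at 3.08, 7.61, 8.19, 6.98 and 10.9 CPM on control, and at 2.04, 2.36, 3.58, 3.28 and 5.01 on fructose. Control 1 lay within the fructose range, and the other 4 controls lay above it. On fructose Per3 fell by 1.18 ± 0.31 log2 units (adjusted p = 0.0279). It no longer passed without the libraries that stood apart (-0.90 ± 0.37, adjusted p = 0.298), nor in a fit of fructose and control alone (adjusted p = 0.0518). Leaving out control 2, 3 or 5 or fructose 1, 2, 3 or 4 gave an adjusted p of 0.0515 to 0.0853. Its dextrose range was 2.7 to 6.17 CPM, with a log2 difference from control of -0.71 ± 0.30 (adjusted p = 0.379), which was -0.39 ± 0.35 without those libraries (adjusted p = 0.946).

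Per1 and Per2, the period genes that respond fastest to signals from outside the clock, had wide control groups. Per1 was 28.5, 39.8, 31.4, 8.50 and 56.9 CPM on control, and 7.67, 12.6, 7.91, 32.3 and 20.9 on fructose. The groups overlapped, with control 4 among the lowest of the 10 libraries, and the difference was -1.03 ± 0.49 log2 units (adjusted p = 0.269). Without the libraries that stood apart it was -0.48 ± 0.55 (adjusted p = 0.792). For Per2 the range was 7.17 to 47.2 CPM among controls, 8.88 to 18 with fructose and 9.73 to 19.6 with dextrose. Its difference on fructose was -0.90 ± 0.38 (adjusted p = 0.204), and on dextrose -0.68 ± 0.38 (adjusted p = 0.592). Without control 1, Per2 on fructose was at -1.13 ± 0.31 and passed (adjusted p = 0.0445). Without control 5, the highest library, it was -0.495 (adjusted p = 0.473), and without the libraries that stood apart -0.40 ± 0.39 (adjusted p = 0.744). The dextrose difference was then -0.17 ± 0.38 (adjusted p = 1.0).

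Nr1d1 and Nr1d2 encode REV-ERB alpha and beta, nuclear receptors that bind haem and repress Arntl and Npas2. Nr1d2 was 40.3, 65.5, 71.2, 70.8 and 63.1 CPM on control, and 24.4, 31.5, 36.2, 49.5 and 47.0 on fructose. All controls but control 1 lay above the fructose range, and the difference was -0.72 ± 0.26 log2 units (adjusted p = 0.115). With dextrose 5 left out of the shared fit its SE was 0.20, and it passed (adjusted p = 0.0363). On dextrose Nr1d2 was 18.8 to 52.7 CPM, with a difference of -0.65 ± 0.26 from control (adjusted p = 0.317). For Nr1d1 the range was 114 to 149.7 CPM among controls, 62.8 to 138 with fructose and 50.4 to 179 with dextrose, and the 3 diet differences, -0.40 to -0.07 log2 units, did not pass. Exons of Nr1d1 share 263 of 3077 bases with Thra on the other strand, and Thra itself was 102 to 153 CPM in duodenum. Over all 10 members the median log2 difference on fructose was -0.56, against -0.02 over all genes tested, and 7 members had an unadjusted p under 0.05 in a comparison where 19.3% of genes did.

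**Figure D1:**
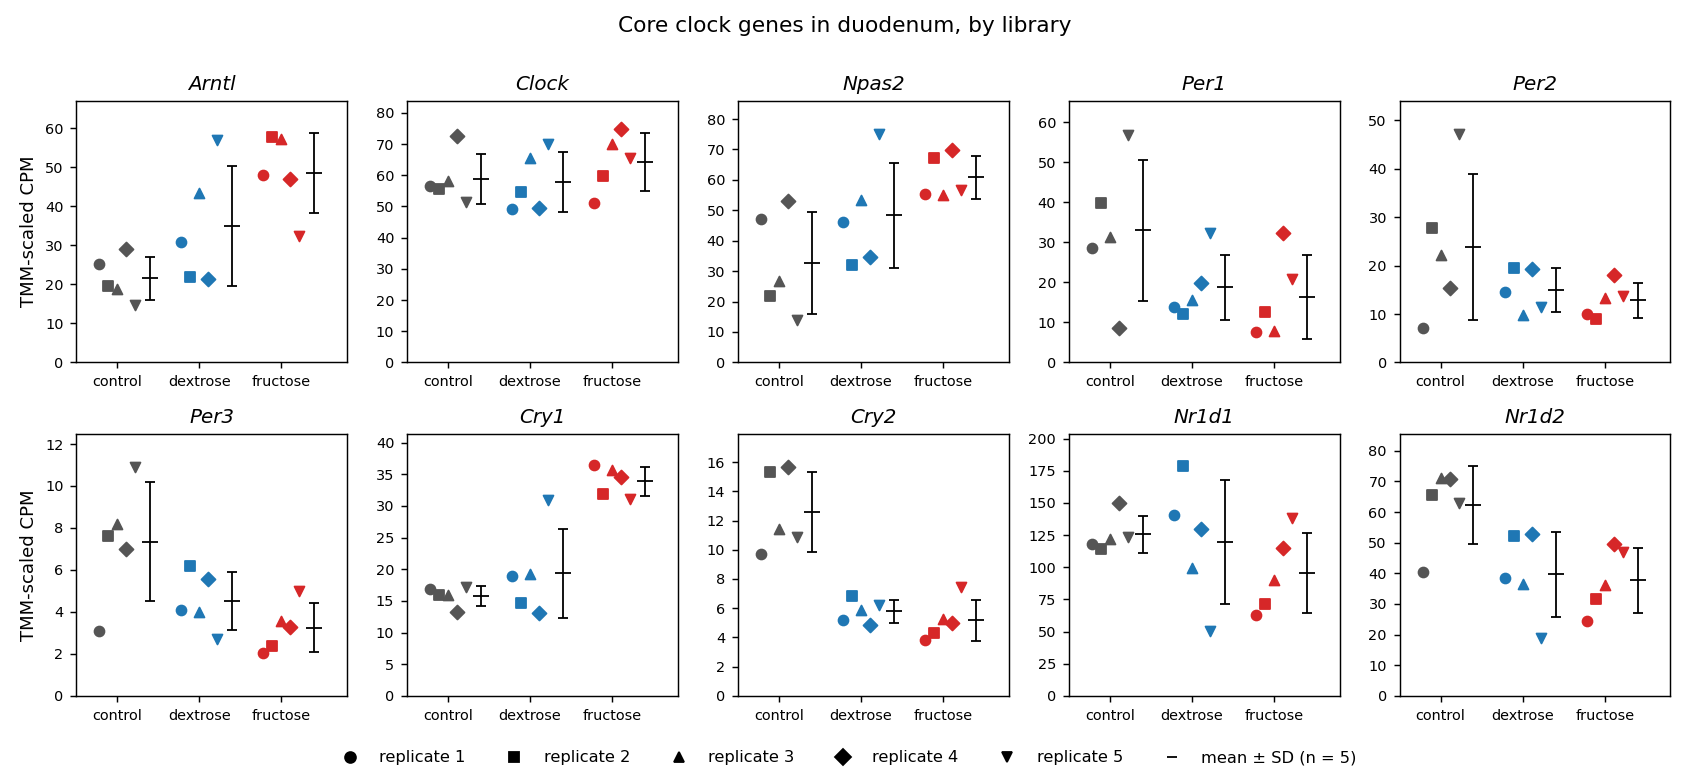
Levels of the 10 clock genes in duodenum, 1 panel per gene, with the diet on the horizontal axis and TMM-scaled CPM on the vertical axis. Symbols are the 5 libraries of a diet, and the bar beside them is the mean ± SD; the fructose symbols of Cry1 lie above both other groups, and the control symbols of Cry2 lie above both sugars.

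The same questions were asked in the liver. There 0 of the 10 members passed with fructose against control, dextrose against control or fructose against dextrose, by edgeR with adjustment over 13178 genes and also by DESeq2. Few genes of any kind passed in this tissue: 0.258%, 0.0% and 0.0759% of those tested. At an unadjusted p under 0.05 there were 1, 0 and 3 members, while 11.7%, 4.2% and 9.45% of all genes reached it. No member had diet groups that did not overlap, where 2.88%, 0.349% and 3.61% of genes did.

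Npas2 and Per3 had the widest fructose differences in liver. Npas2 on fructose was 15.0, 14, 13.5, 8.91 and 4.98 CPM. On dextrose it was 0.718, 0.717, 1.96, 0.731 and 8.48, and on control 2.46, 6.13, 1.07, 4.25 and 0.242. Fructose 5 fell within the range of the other diets, and dextrose 5 was above fructose 5. The log2 difference was 1.97 ± 0.78 against control (adjusted p = 0.348) and 2.13 ± 0.78 against dextrose (adjusted p = 0.413). Without dextrose 5 and control 2, the libraries with high cell cycle genes, these became 2.48 ± 0.57 (adjusted p = 0.0528) and 3.47 ± 0.63 (adjusted p = 0.0203). The second of these passed. Without dextrose 5 alone it was 3.456 (adjusted p = 0.0676) and did not.

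Arntl in liver was 32.8, 32.6, 35.3, 21.7 and 16.8 CPM on fructose. On dextrose it was 6.13, 4.04, 20.2, 4.81 and 35.9, and on control 14, 25.1, 6.11, 23.8 and 2.78. The fructose libraries were among the higher ones, yet dextrose 5 was the highest of all 15. The difference was 0.95 ± 0.65 against control (adjusted p = 0.596) and 0.96 ± 0.65 against dextrose (adjusted p = 0.689). Without dextrose 5 and control 2 these were 1.25 ± 0.62 (adjusted p = 0.322) and 1.68 ± 0.64 (adjusted p = 0.241), and without dextrose 5 alone the second was 1.673. Cry1 lay at 12.2 to 20.4 CPM with fructose, 5.10 to 13.2 with control and 3.90 to 19.4 with dextrose, and its difference from control was 0.85 ± 0.40 (adjusted p = 0.429). Clock was 60.4 to 71.5 CPM on fructose, and its difference from control was 0.40 ± 0.21 (adjusted p = 0.478).

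Per3 in liver was 0.791, 1.12, 1.64, 2.83 and 3.43 CPM on fructose. On dextrose it was 9.53, 14.3, 2.84, 16.7 and 1.30, and on control 3.78, 1.68, 2.83, 2.53 and 20.1. Dextrose 1, 2 and 4 and control 5 were far above the rest. The log2 difference was -1.65 ± 0.80 against control (adjusted p = 0.445) and -2.18 ± 0.81 against dextrose (adjusted p = 0.414). Without control 5 the difference from control was -0.457 (adjusted p = 0.819). Per1 lay at 4.33 to 26.8 CPM with fructose, 4.77 to 38.1 with control and 7.75 to 41.8 with dextrose, and its diet differences were -0.91 to -0.42 log2 units with SEs of 0.60 to 0.61. Without dextrose 5 and control 2, fructose against dextrose was 0.01 ± 0.66 and dextrose against control -0.87 ± 0.69 for Per1. Per2 lay at 9.82 to 15.7 CPM with fructose, 4.41 to 34.9 with control and 4.89 to 20.1 with dextrose, and its differences were -0.16 to 0.02 with SEs of 0.48.

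Cry2 in liver was 24.4, 27.7, 31.7, 30.8 and 38.6 CPM on fructose. It was 46.1, 52.2, 25.4, 49.1 and 19.3 on dextrose, and 26.2, 18.5, 27.9, 31.1 and 35.3 on control. Dextrose 1, 2 and 4 were the highest, and the groups overlapped. The difference from control was 0.14 ± 0.25 on fructose (adjusted p = 0.854) and 0.47 ± 0.25 on dextrose (adjusted p = 0.922). Nr1d1 lay at 49.4 to 110.1 CPM with fructose, 45.2 to 151 with control and 9.92 to 173 with dextrose. Its lowest value, 9.92 CPM, was that of dextrose 5, where the other dextrose libraries lay at 99.7 to 173. Nr1d2 lay at 38.7 to 71.2 CPM with fructose, 51.5 to 100.1 with control and 36.6 to 101 with dextrose, and its fructose difference was -0.57 ± 0.26 against dextrose (adjusted p = 0.519).

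**Figure D2:**
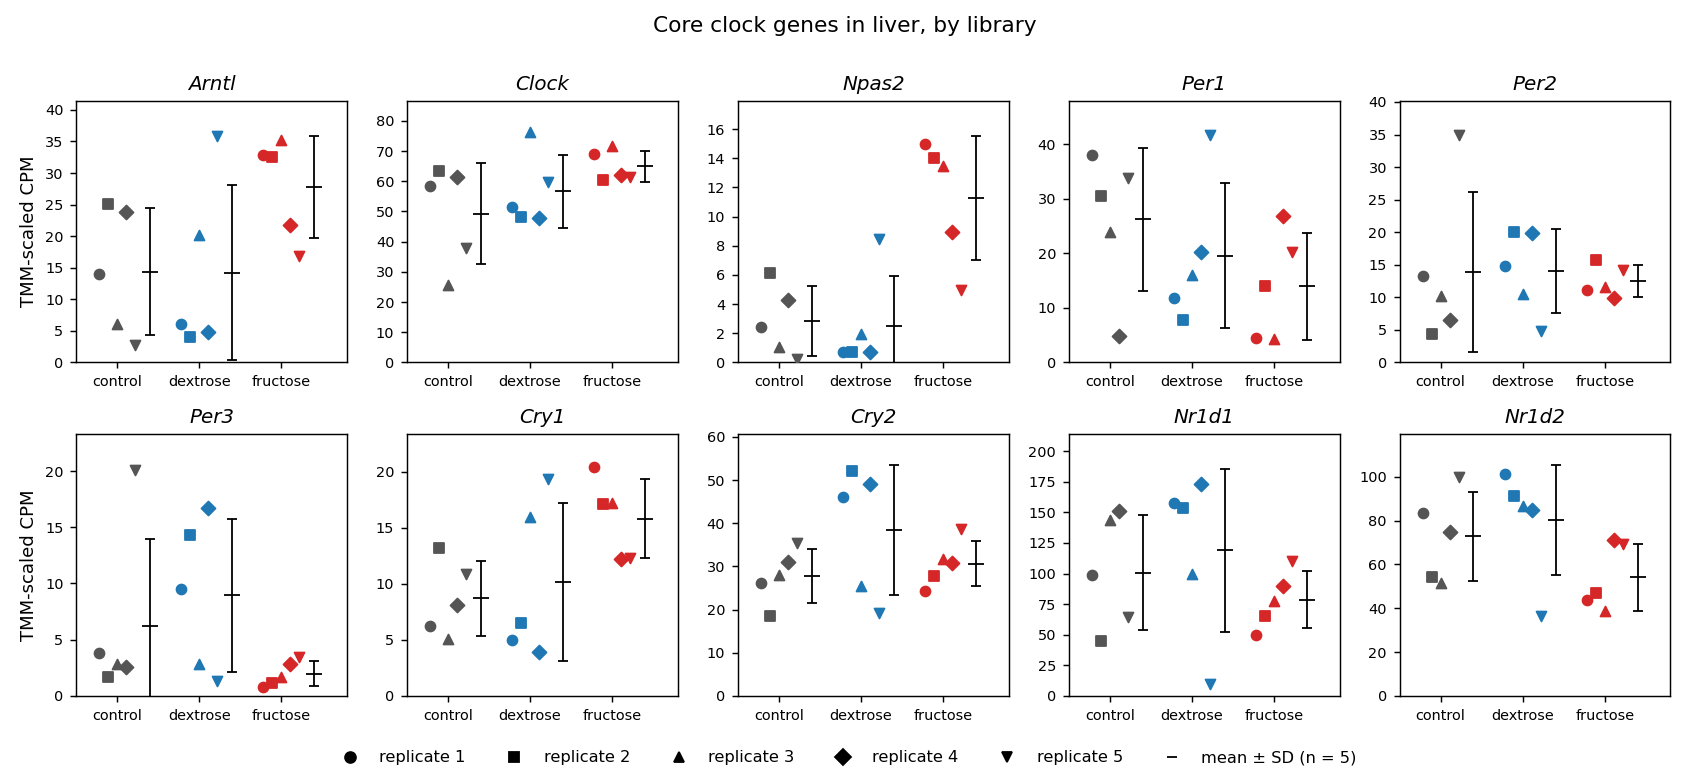
Levels of the 10 clock genes in liver, 1 panel per gene, with the diet on the horizontal axis and TMM-scaled CPM on the vertical axis. Symbols are the 5 libraries of a diet and the bar is the mean ± SD, cut at 0 where it would pass below; Npas2 on dextrose sits under 2 CPM in libraries 1 to 4 and at 8.48 in library 5.

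Whether diet differences were unlike between the organs was tested by the difference of the diet effects, liver minus duodenum. The fit held all 30 libraries. Cry2 passed for both sugars against control. The difference of its effects was 1.40 ± 0.33 log2 units for fructose (adjusted p = 0.0293) and 1.58 ± 0.33 for dextrose (adjusted p = 0.0414). In duodenum Cry2 fell on both sugars, and in liver its values were 0.14 and 0.47. For each sugar 1 of the 10 members passed, where 1.08% of genes did for fructose (0.413% with the higher effect in liver) and 0.118% for dextrose (0.105%).

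The dextrose result for Cry2 lay near the threshold: it passed with 8 of the 30 libraries left out 1 at a time, namely duodenum control 1, fructose 1 and fructose 5, and liver control 5, dextrose 3, dextrose 5, fructose 1 and fructose 5, and did not pass without any other. The fructose result no longer passed without duodenum control 2 or 4, duodenum fructose 1, 2, 3 or 4, or liver fructose 3 or 5. Without the 5 libraries that stood apart both passed, at 1.38 ± 0.31 (adjusted p = 0.0231) and 1.75 ± 0.30 (adjusted p = 0.00671). For fructose against dextrose 0 members passed, where 0.662% of genes did. At an unadjusted p under 0.05 there was 1, where 9.88% of genes were, and DESeq2 called 0. Npas2 had a difference of 1.76 ± 0.77 in this contrast (adjusted p = 0.433), which became 3.12 ± 0.71 without liver dextrose 5 (adjusted p = 0.0308) and then passed.

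**Figure D3:**
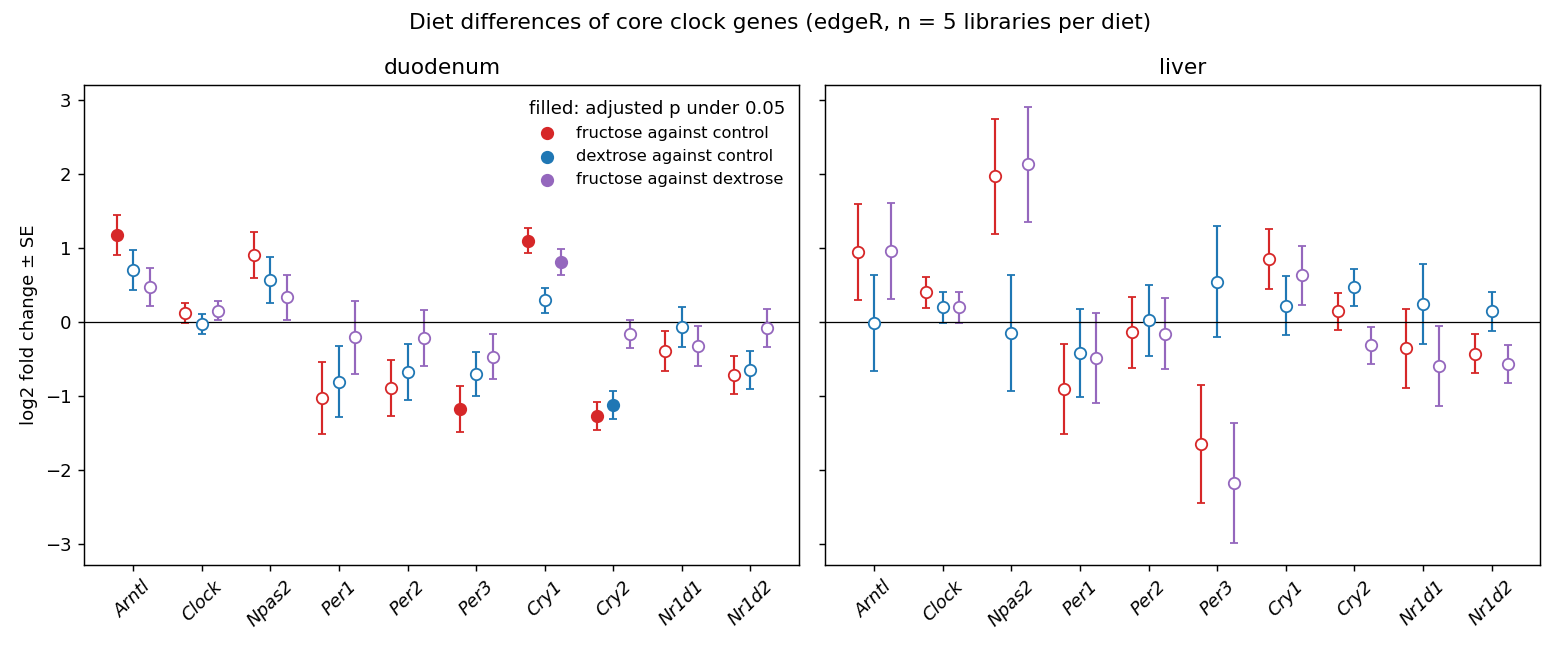
Diet differences of the 10 clock genes as log2 fold change ± SE (edgeR, 5 libraries per diet), duodenum on the left and liver on the right. Filled symbols passed an adjusted p of 0.05; they are Arntl, Per3, Cry1 and Cry2 for fructose against control, Cry2 for dextrose against control and Cry1 for fructose against dextrose, each in duodenum.

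Levels were next set side by side per length, as the deposited FPKM, which divide counts by gene length and library total. They carry no correction for RNA composition, so differences between tissues in FPKM are approximate, and the order of genes depends on the lengths used. Nr1d1 was the most abundant member in each of the 6 groups, with means from 43.8 ± 12.9 FPKM (SD, n = 5) in liver on fructose to 73.1 ± 9.79 in duodenum on control. Per3 had the lowest mean of the repressors throughout, from 0.457 ± 0.260 FPKM in liver on fructose to 2.10 ± 1.59 in liver on dextrose. Clock was the most even, between 10.4 ± 4.31 and 13 ± 1.21 FPKM across the groups. Arntl fell in order from duodenum on fructose (16.3 ± 3.86), dextrose (12.3 ± 5.79), liver on fructose (9.39 ± 2.82), duodenum on control (7.54 ± 2.05) and liver on dextrose (5.33 ± 5.81) to liver on control (5.20 ± 4.05). No neighbours in that order differed by more than the larger of their SDs.

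Npas2 was higher in duodenum and Cry2 in liver. The mean of Npas2 was 34.1 ± 3.17, 28.3 ± 11.2 and 19.2 ± 10.1 FPKM in duodenum on fructose, dextrose and control, and 6.38 ± 2.41, 1.65 ± 2.41 and 1.76 ± 1.69 in liver. The gaps from duodenum control to liver fructose, and from there to liver control, were larger than the SDs. Cry2 had the opposite order, with 18 ± 6.32, 14 ± 2.45 and 12.9 ± 2.13 FPKM in liver on dextrose, fructose and control, then 6.00 ± 1.37, 2.73 ± 0.386 and 2.34 ± 0.572 in duodenum on control, dextrose and fructose. Its gaps beyond the SDs were those on either side of duodenum control. Cry1 was highest in duodenum on fructose, at 11 ± 1.18 FPKM, and its other 5 means were 3.01 to 6.53, the gap below the highest being larger than the SDs. For Per3, duodenum fructose (0.749 ± 0.249 FPKM) lay below duodenum dextrose (1.08 ± 0.307) by more than the SDs, and liver fructose lay below duodenum fructose likewise. Within liver, the gap from control (1.45 ± 1.81) to fructose was smaller than the SD of control. Neighbouring groups did not differ beyond their SDs for Per1 (3.92 to 9.66 FPKM), Per2 (4.03 to 8.05), Nr1d1 or Nr1d2 (11.4 to 25.1).

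On the control diet the organs were tested directly. Npas2 was higher in duodenum by 3.19 ± 0.58 log2 units (adjusted p = 2.06e-05), and Cry2 was lower there by a log2 difference of -1.43 ± 0.23 (adjusted p = 2.95e-06). The other 8 members had differences of -0.52 to 0.56 and did not pass, in a comparison where 74.6% of genes passed (37.3% in each direction). The Npas2 and Cry2 calls held in all 37 alternatives tried for this comparison.

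Libraries of one diet differed more in most of the clock genes than in the typical gene. In liver the SD within a diet, on the scale of log2 CPM, was 1.28 for Npas2, 1.26 for Per3, 1.13 for Arntl, 1.12 for Nr1d1 and 1.11 for Per1, against a median of 0.30 over all genes. At least 98% of genes had a smaller SD than each of these 5. In duodenum Per1 had the widest spread, 0.84 against a median of 0.25, and 97.0% of genes had a smaller one. Clock was the nearest to the median of all genes in liver and lay below it in duodenum, with 0.37 and 0.21. Genes within a factor of 2 of its level had medians of 0.22 in liver and 0.17 in duodenum, both below Clock. The spread in liver was larger than that in duodenum for each of the 10 members, as was the median over all genes. For Nr1d2 the SDs were nearly equal, 0.48 and 0.47. In liver 77.8% of genes had a smaller SD than Nr1d2, against 80.1% in duodenum. These SDs include the libraries that stood apart, and the spread without them was not computed.

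The members were next set against each other within diets. Each library's deviation from the mean of its diet was taken on log2 CPM, and Arntl was set against the other 9 members over the 15 libraries of a tissue. This gave 18 relations, tested by two-sided permutation within diets with 100000 resamples and adjusted over all 18. In both organs Npas2 went with Arntl, and Per2, Per3 and Nr1d2 went against it. The same libraries supply all members, so the relations are not independent of each other. A single diet, with 5 libraries, was too small for an r of its own; among relations that passed, Nr1d1 on control in duodenum ran against its pooled direction, and Per2 on fructose in liver showed almost none.

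In duodenum the Npas2 relation had a Pearson r of 0.80 (p = 0.00029, adjusted p = 0.00174) and a Spearman rho of 0.80 (p = 0.00328, adjusted p = 0.00843). Per3 had r of -0.72 (p = 0.00224, adjusted p = 0.00672) and rho of -0.81 (p = 0.00096, adjusted p = 0.00576). Per2 had r of -0.66 (p = 0.0045, adjusted p = 0.0116) and rho of -0.76 (p = 0.00264, adjusted p = 0.00837). Without the 2 libraries farthest from the median of Arntl these 3 had r of 0.76, -0.66 and -0.70 in permutations with adjusted p of 0.0153, 0.0481 and 0.0382. Without the libraries that stood apart r was 0.83, -0.71 and -0.60, in permutations with adjusted p of 0.0099, 0.0419 and 0.0486. Nr1d2 had r of -0.70 (p = 0.0116, adjusted p = 0.0262) and rho of -0.75 (p = 0.00717, adjusted p = 0.0143). Nr1d1 had r of -0.68 (p = 0.0156, adjusted p = 0.0281) and rho of -0.60 (p = 0.0438, adjusted p = 0.0721). These last relations no longer passed without the 2 farthest libraries, where r was -0.47 for Nr1d2 (adjusted p = 0.176) and -0.52 for Nr1d1 (adjusted p = 0.156). Both passed without the libraries that stood apart, with r of -0.73 for Nr1d2 and -0.77 for Nr1d1 (permutation, adjusted p = 0.0419 for each).

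In liver Npas2 followed Arntl most closely, with r of 0.96 (p = 3e-05, adjusted p = 0.00054) and rho of 0.90 (p = 6e-05, adjusted p = 0.00108). Per3 had r of -0.91 (p = 0.00024, adjusted p = 0.00174) and rho of -0.88 (p = 0.00038, adjusted p = 0.00342). Cry2 had r of -0.83 (p = 0.00128, adjusted p = 0.00461) and rho of -0.80 (p = 0.00427, adjusted p = 0.00961). Clock had r of 0.73 (p = 0.0143, adjusted p = 0.0281) and rho of 0.89 (p = 0.00208, adjusted p = 0.00837). Without the 2 farthest libraries r was 0.93, -0.78, -0.74 and 0.86 for these 4, with adjusted p of 0.00666, 0.0155, 0.0481 and 0.00978. Without dextrose 5 and control 2 it was 0.95, -0.86, -0.70 and 0.77, with adjusted p of 0.0054, 0.0131, 0.0419 and 0.0486.

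Per2 in liver had r of -0.87 (p = 0.00108, adjusted p = 0.00461) and rho of -0.84 (p = 0.00279, adjusted p = 0.00837), and Nr1d2 had r of -0.63 (p = 0.0223, adjusted p = 0.0364) and rho of -0.57 (p = 0.044, adjusted p = 0.0721). Without the 2 farthest libraries neither passed. For Per2 r was still -0.67 (permutation, adjusted p = 0.0835), while for Nr1d2 it was -0.17 (adjusted p = 0.595). Without liver dextrose 5 and control 2, r was -0.79 for Per2 (adjusted p = 0.0419) and -0.32 for Nr1d2 (adjusted p = 0.422). Per1 showed no relation with Arntl that passed, with r of -0.24 in duodenum (permutation p = 0.372) and -0.05 in liver (permutation p = 0.865). These pooled values mix signs. On fructose, dextrose and control r was -0.50, 0.63 and -0.88 in duodenum and -0.79, 0.77 and -0.44 in liver, each over 5 libraries and not tested. Cry1 had r of 0.62 in duodenum (adjusted p = 0.0807) and 0.65 in liver (adjusted p = 0.0642), and did not pass either. Without the 2 farthest libraries Cry1 in liver had r of 0.86 and passed (permutation, adjusted p = 0.00978), and in duodenum 0.17 (adjusted p = 0.654). Without the libraries that stood apart Cry1 did not pass, with r of 0.42 in liver (permutation, adjusted p = 0.317) and 0.76 in duodenum (adjusted p = 0.0514). Nr1d1 in liver had r of -0.57 (adjusted p = 0.077), and -0.02 without dextrose 5 and control 2. Cry2, which opposed Arntl in liver, had r of -0.06 in duodenum (adjusted p = 0.865), and the difference between the organs was not tested.

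**Figure D4:**
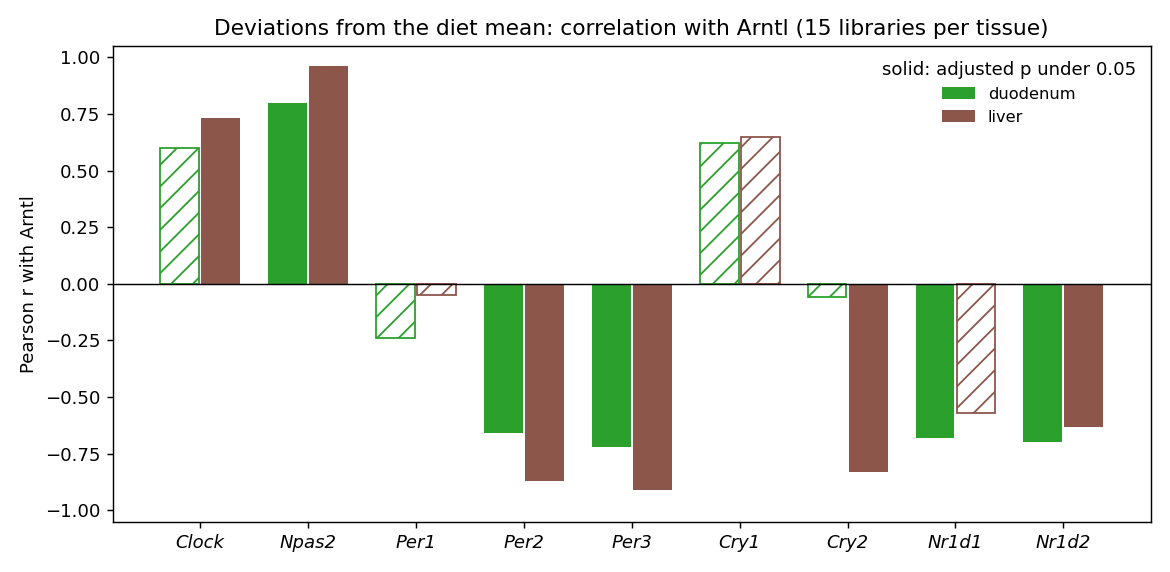
Pearson correlation of each member with Arntl over 15 libraries of a tissue, as deviations from the diet mean on log2 CPM; bars start at 0 and solid bars passed an adjusted p of 0.05. Bars of Clock, Npas2 and Cry1 point up in both organs, and those of the Per, Nr1d and Cry2 genes point down, Per1 least of all in liver (r = -0.05).

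Library numbers run from 1 to 5 in each diet and organ, so duodenum and liver libraries of one diet and number could be set beside each other, although the labels do not say that a number marks one mouse. Deviations from the group mean were compared over these 15 pairs for each of the 10 members, with the same permutation test and adjustment over the 10. Per1 had an r of 0.94 (p = 8e-05, adjusted p = 0.0006) and a rho of 0.92 (p = 0.00017, adjusted p = 0.0017). Arntl had an r of 0.87 (p = 0.0003, adjusted p = 0.001) and a rho of 0.81 (p = 0.00326, adjusted p = 0.0109). Nr1d1 had an r of 0.86 (p = 0.00012, adjusted p = 0.0006) and a rho of 0.76 (p = 0.0008, adjusted p = 0.004). Without the 2 pairs farthest from the median in duodenum, r was 0.87, 0.81 and 0.68 for these 3, with adjusted p of 0.00427, 0.00755 and 0.00355. Without the pairs that hold a library that stood apart, a choice made after seeing the data, 10 pairs were left and r was 0.96, 0.90 and 0.89, in permutations with adjusted p of 0.0087, 0.018 and 0.046.

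In 14 of 15 pairs the duodenum and liver values of Per1 lay on the same side of their group means, and the count was also 14 for Arntl and 11 for Nr1d1. The other 7 members did not pass by r, and Per3 passed by rho (0.71, permutation, adjusted p = 0.023). Their r was 0.68 for Cry1, 0.66 for Npas2, 0.64 for Per3, 0.58 for Nr1d2, 0.34 for Clock, 0.33 for Per2 and 0.04 for Cry2, with adjusted p of 0.0642 to 0.883. By r, Per3 passed once the 2 farthest pairs were left out (r = 0.77, adjusted p = 0.00355), and did not without the pairs that hold a library that stood apart (r = 0.56, adjusted p = 0.212). Over 11909 genes together, libraries that share a diet and number correlated at -0.03 to 0.19 across the organs, and 8 of the 15 matched their own number best. Each duodenum library was matched against the 5 liver libraries of its diet, and the count was not tested.

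**Figure D5:**
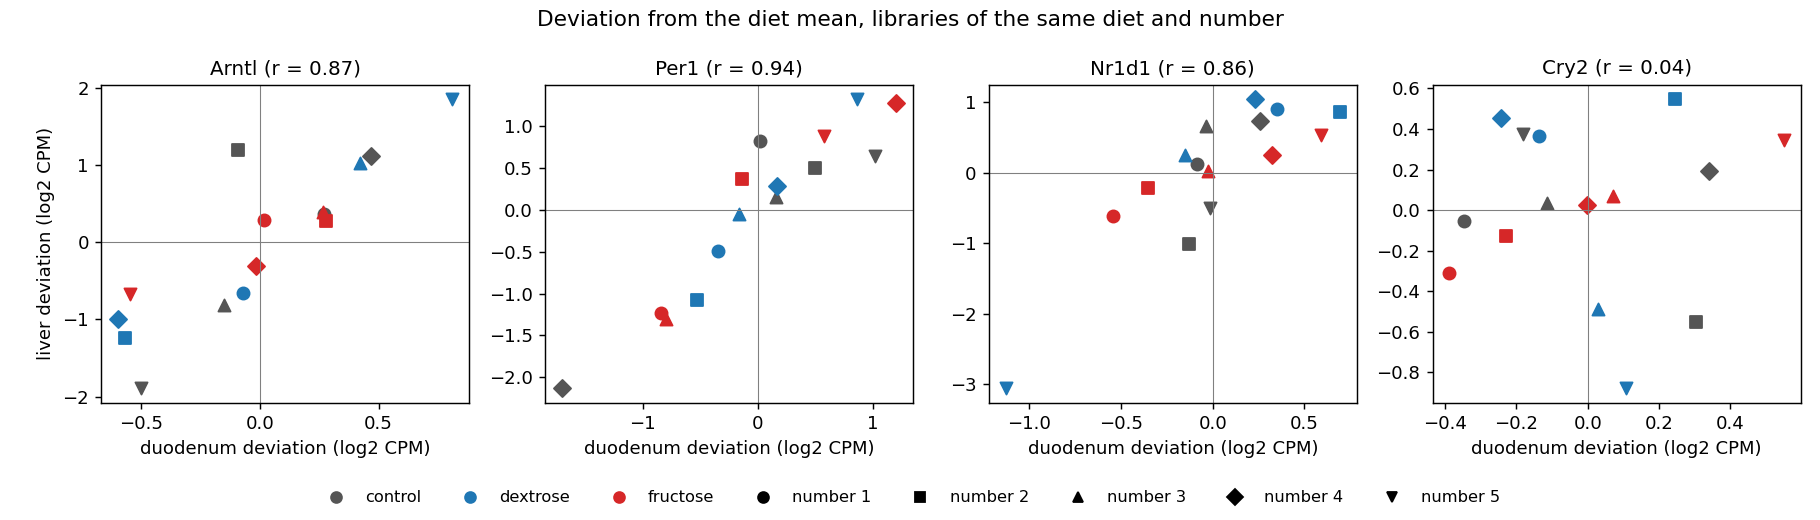
Deviation from the group mean in duodenum (horizontal axis) and in liver (vertical axis), in log2 CPM, for 15 pairs of libraries with the same diet (colour) and number (symbol). Points of Arntl, Per1 and Nr1d1 run along a rising line (r = 0.87, 0.94 and 0.86), and those of Cry2 do not (r = 0.04).

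Other genes of the clock were read from a pair of lists. The first holds 9 factors that act on the loop, of which 7 were tested in duodenum. With fructose against control 2 rose and 2 fell, where 4.01% and 2.7% of all genes did. Bhlhe40, whose protein competes for E-boxes, rose by 0.98 ± 0.12 log2 units (adjusted p = 6.39e-05), with 60 to 72.0 CPM on control and 116 to 182 on fructose. Dbp and Tef, activators that bind D-boxes such as those printed above for Per1 and Per3, fell. Dbp fell by 3.84 ± 0.88 (adjusted p = 0.0166), with 9.96 to 64.9 CPM on control and 1.15 to 5.66 on fructose. Tef fell by 1.91 ± 0.39 (adjusted p = 0.00817), with 39.3 to 91.0 CPM on control and 10 to 27.1 on fructose. Without the 3 libraries that stood apart Bhlhe40 still passed (1.04 ± 0.16, adjusted p = 0.00252). Tef (adjusted p = 0.132) and Dbp (adjusted p = 0.197) did not, at -1.63 and -2.99. Dbp also had an adjusted p of 0.0521 without duodenum fructose 4. The list's median log2 difference was -0.38, against -0.02 over all genes.

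With fructose against dextrose in duodenum Bhlhe40 rose (0.88 ± 0.12, adjusted p = 0.000276) and no other member of the list passed by edgeR. Of the list 4 had an unadjusted p under 0.05, where 16.1% of all genes did. DESeq2 called 3 of the list, and 826 of 13871 genes in all. With dextrose against control 0 of the 7 passed by edgeR and 0 by DESeq2, with 1 at an unadjusted p under 0.05, where 10.8% of all genes were. In liver 0 of the 9 passed by edgeR in any diet comparison. For fructose against control, fructose against dextrose and dextrose against control there, 5, 5 and 0 had an unadjusted p under 0.05, and DESeq2 called 2, 1 and 0. Of all genes in liver 11.7%, 9.45% and 4.2% reached that p, and DESeq2 called 217, 143 and 1 of 13004. Bhlhe40 was 37.4 to 61.5 CPM on fructose there and 52.6 to 158.7 on control, and its diet effects differed between the organs by -1.93 ± 0.31 for fructose against control (adjusted p = 0.00129) and -1.83 ± 0.31 for fructose against dextrose (adjusted p = 0.00194). On the control diet 6 of the 9 were lower in duodenum than in liver, where 37.3% of all genes were, led by Rora (-6.21 ± 0.28, adjusted p = 4.9e-18), Bhlhe41 (-3.11 ± 0.64, adjusted p = 8.69e-05) and Nfil3 (-2.24 ± 0.54, adjusted p = 0.000596). The second list holds 8 genes whose proteins mark clock proteins for destruction or protect them, and 0 of them passed in any diet comparison in either organ by edgeR. At an unadjusted p under 0.05 there were 3 for fructose against control in duodenum, 2 for the same in liver and 1 for fructose against dextrose in liver, and DESeq2 called 1, 1 and 0. In these 3 comparisons 19.3%, 11.7% and 9.45% of all genes reached that p, and DESeq2 called 1258, 217 and 143 genes. Both counts for the list were 0 in the other 3 diet comparisons. Between the organs on the control diet 5 were higher in duodenum and 3 lower, where 74.6% of all genes passed. Gsk3b, a kinase that phosphorylates clock proteins, was 1.03 ± 0.14 log2 units higher (adjusted p = 1.16e-07), and Fbxw11, which targets period proteins, 0.61 ± 0.11 higher (adjusted p = 1.57e-05). Among the 3 that were lower, Btrc had a log2 difference of -0.64 ± 0.12 (edgeR, adjusted p = 1.77e-05), close in size to that of Fbxw11.

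Genes that tracked a member over the 15 libraries of an organ were named by the highest Pearson r of log2 CPM, as a description. The points share library and diet, and nothing follows from likeness on shared function or control. Arntl was most like Ypel2 (r = 0.964), Cdcp1 (0.951) and St5 (0.938) among 11523 genes in duodenum, and in liver Abtb2 (0.953) and Ypel2 (0.948) were among the most like of 11310. Ypel2 was thus named in both organs. Per2 was most like Cyth1 (0.862), Usp2 (0.829) and Dgat2 (0.813) in duodenum, and Azin1 (0.921), Dio1 (0.910) and Fzd8 (0.881) in liver. Usp2 is a deubiquitinase of the second list above. Cry1 was most like Cfap61 (0.913), Kif21a (0.909) and Zfr (0.906) in duodenum, and Btg1 (0.903), Srprb (0.896) and Parp16 (0.896) in liver. Nr1d1 was most like the sugar transporter gene Slc2a7 (0.907), March5 (0.903) and Tmem120a (0.900) in duodenum, and Cyp2e1 (0.935), Slc1a2 (0.912) and Pank1 (0.910) in liver.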

How the data were processed

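RNA-seq libraries of duodenum and liver were read from a deposited table of raw counts per Ensembl gene that also holds FPKM made by the authors. Among the tools in the submitters' processing notes were TopHat2 2.0.12, Bowtie2 2.2.3, HTSeq 0.6.1 and DESeq 1.18.0; genome build, annotation and counting strand are not given in the sources used here. The deposited FPKM equal the counts per gene length and total within a relative tolerance of 0.001 for 100% of values. No libraries of a group were alike within sampling noise, the lowest chi-square per degree of freedom being 8.23.

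Counts were fitted in R 4.3.3 with edgeR 4.0.16 (filterByExpr by diet, TMM, robust quasi-likelihood F test, two-sided, Benjamini-Hochberg adjustment over all genes tested, threshold 0.05). Each tissue's 15 libraries were fitted together, and all 30 in 6 groups for contrasts between tissues, with no replicate block. SE is the log2 fold change divided by the square root of F. CPM are TMM-scaled within a tissue; deviations used log2 CPM with a prior count of 3. The members and lists were chosen with earlier results of these data known. Named were the 10 members, up to 3 passing genes with the smallest p of each list in a comparison (Dbp came next and was added after its values were seen), and the 3 genes most like Arntl, Per2, Cry1 and Nr1d1; a few genes that these rules name are not reported here. Like genes had a mean of at least 1 CPM, and predicted genes and pseudogenes were left out. Alternatives were DESeq2 1.42.0, other scaling and filters, fits of fewer libraries and a replicate block. The code was tested on simulated data.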

Additional observations from a re-analysis of the deposited data

Results flagged for a closer look

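Of 60 groups of 5 libraries (10 members, 6 groups each), 5 held a library far from the other 4 by Dixon's criterion (0.71), and chance alone flags about 1 in 20 groups. Liver dextrose 5 was high for Npas2, at 8.48 CPM against 0.717 to 1.96 in the other dextrose libraries. The same library was low for Nr1d2, at 36.6 CPM against 84.9 to 101, and it is the library with the highest cell cycle and acinar marker sums of its group. Liver control 5 was high for Per3, at 20.1 CPM against 1.68 to 3.78. Duodenum control 4 was high for Nr1d1, at 149.7 CPM against 114 to 124. Duodenum control 1 was low for Nr1d2, at 40.3 CPM against 63.1 to 71.2.

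The diet difference in Cry2 was unlike between the organs by the test of the difference itself. Liver minus duodenum, the log2 difference was 1.58 for dextrose against control and 1.40 for fructose against control, by edgeR's quasi-likelihood test with adjusted p of 0.0414 and 0.0293. Both contrasts use the same control libraries.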

How the results depend on the processing

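Cry1 and Cry2 for fructose against control and Cry2 for dextrose against control, in duodenum, passed in each of the 23 alternatives (log2 1.04 to 1.13, -1.45 to -1.19 and -1.23 to -1.04). Counts of members that passed moved as follows. Without the libraries that stood apart, duodenum went from 4 to 2 for fructose against control and from 1 to 0 for fructose against dextrose, liver from 0 to 1 for fructose against dextrose, and the contrast between organs for fructose against dextrose from 0 to 1. Dextrose against control between organs went from 1 to 0 with no low-count filter and with the replicate block, and the tissue difference on control from 2 to 4 with the block. Leaving out 1 library at a time gave 2 to 4 for the tissue difference (4 without liver control 5), and 0 to 1 for each contrast between organs; duodenum fructose against control gave 3 to 5. Without the 2 farthest libraries the relations with Arntl in duodenum went from 5 to 3. Signs turned for small differences: Per2 in liver, dextrose against control, was -0.007 with upper-quartile factors and -0.006 without the libraries that stood apart; Per2, fructose against control, was 0.001 with the block; Per1 in liver, fructose against dextrose, was 0.010 without the libraries that stood apart. With 1 library left out, ranges that crossed 0 were, for dextrose against control in liver, Arntl -0.725 to 0.283, Cry1 -0.164 to 0.428, Npas2 -1.485 to 0.354 and Per2 -0.212 to 0.711; for fructose against control in liver, Per2 -0.373 to 0.547; for fructose against dextrose in liver, Per1 -0.861 to 0.000; for duodenum, Clock -0.106 to 0.048 and Nr1d1 -0.256 to 0.129 on dextrose against control, and Nr1d2 -0.256 to 0.048 and Per1 -0.623 to 0.070 on fructose against dextrose; and between organs, Cry2 -0.342 to 0.005 for fructose against dextrose. The cause of these changes was not tested. With DESeq2, Npas2 (adjusted p = 0.0251) and Nr1d2 (0.0465) also passed in duodenum for fructose against control. The replicate block left Arntl at 1.17 there (adjusted p = 0.0578) and Dbp at -3.79 (adjusted p = 0.0514); for genes of the clock lists, such as Dbp, alternatives were chosen after seeing the data. The numbers were not taken as pairing, since the labels do not say that they mark a mouse. Across diets 10 of 30 pairs of libraries correlated above 0.1 (-0.448 to 0.516), and 5 matched their own number best. Across organs 3 of 15 were above 0.1, but 8 of 15 matched their own number best. Across diets and across organs alike, each best match was picked from 5 libraries, and the counts were not tested. Pairs across diets do not bear on whether a duodenum and a liver library share a mouse, which stays unknown. The contrasts between organs treated the 30 libraries as independent. Over all genes, duodenum fructose against control gave 932 calls, 329 without the libraries that stood apart, and 59.8% of calls were higher, 48.6% with upper-quartile factors; for fructose against dextrose these were 506, 274, 59.5% and 46.2%, and for dextrose against control 312 and 163. In liver 34 calls for fructose against control became 225 without those libraries and 217 with DESeq2, and 10 for fructose against dextrose became 250 and 143. Upper-quartile factors moved the median of all genes to -0.115 for the tissue difference. Low counts limit Per3, and Npas2 in liver.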
